A study of Mus musculus with 6 samples.

Results

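Interferon-stimulated genes are the antiviral programme that cells switch on when interferon binds its receptors, and the 31 genes described here are a list of such genes given by name and looked up by symbol. All 31 were found among the 23420 gene symbols of the count table, and all 31 had enough reads to be tested. RNA was sequenced in bulk from aortic roots of mice, 3 labelled Sost-/- (KO 1 to 3) and 3 labelled Sost+/+ (WT 1 to 3). The mice were of C57BL6/J background, were 12 months old and had eaten a high-cholesterol diet for 8 months from the age of 4 months. The Sost-/- label stands for loss of both copies of Sost, the gene of the secreted Wnt antagonist sclerostin, and the labels do not describe the allele further.

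Type I interferons signal through a receptor whose kinases switch on a complex with STAT2 and IRF9 that binds the interferon-stimulated response element (ISRE) of target promoters. Type II interferon, made by T and NK cells, acts mainly through another element, the GAS. The induced proteins sense foreign nucleic acids, block translation, hold back budding viruses, tag proteins with ISG15 and feed back on the pathway, and macrophages, endothelium and muscle cells of an artery can all express them.

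Promoter windows from RefSeq (GRCm38.p6, the assembly of mm10) were searched for the letters of the ISRE and the GAS. A match of letters does not show that a gene is induced through it. The window ran from 250 bases before the annotated gene start over 300 bases, and 21 of the 31 genes had at least 1 window in the table. The ISRE core was searched as GAAA, NN and GAAA in direct sequence, where N is any base, and the GAS as TTCNNNGAA, each on both strands and with overlapping matches counted. An ISRE core was present for 13 of the 21 genes (61.9%), against 3.99% of all 27025 genes with a RefSeq window and 3.79% of the 11103 that were also tested here. A GAS was present for 4 of the 21 (19.0%), against 9.55% of all, and 3 genes held both. The 250 bases before the start of Isg15 and Ifit1 are shown, because they hold several cores each. The Isg15 stretch lies at chr4:156200819-156201068 on the minus strand and the Ifit1 stretch at chr19:34640639-34640888 on the plus strand, both written 5′ to 3′ in the direction of the gene, with ISRE cores in capitals.
Isg15: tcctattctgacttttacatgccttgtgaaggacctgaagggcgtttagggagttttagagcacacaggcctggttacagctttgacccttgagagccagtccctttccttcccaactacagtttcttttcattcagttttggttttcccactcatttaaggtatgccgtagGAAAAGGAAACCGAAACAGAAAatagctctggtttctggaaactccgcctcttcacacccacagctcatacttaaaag
Ifit1: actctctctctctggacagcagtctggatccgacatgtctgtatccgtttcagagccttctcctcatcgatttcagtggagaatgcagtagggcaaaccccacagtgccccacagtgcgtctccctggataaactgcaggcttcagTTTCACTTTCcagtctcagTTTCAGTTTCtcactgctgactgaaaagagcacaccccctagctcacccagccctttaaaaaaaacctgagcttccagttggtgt

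In Isg15, 3 overlapping cores formed 1 run that began 78 bases before the gene start, and in Ifit1 both cores lay on the opposite strand, read as TTTC, NN and TTTC, 104 and 85 bases before it. Shorter stretches of 7 further genes put the same core side by side, with 1 core of each in capitals and 10 bases on either side. They lie at chr19:34583397-34583426 for Ifit3, chr3:142620594-142620623 for Gbp2, chr5:120777715-120777744 for Oas3, chr5:120907520-120907549 for Oas1a, chr8:71537577-71537606 for Bst2, chr10:128270266-128270295 for Stat2 and chr12:26456553-26456582 for Rsad2.
Ifit3: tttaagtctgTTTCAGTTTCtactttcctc
Gbp2: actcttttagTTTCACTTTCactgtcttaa
Oas3: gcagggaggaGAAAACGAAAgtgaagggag
Oas1a: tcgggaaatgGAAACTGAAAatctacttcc
Bst2: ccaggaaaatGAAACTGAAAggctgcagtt
Stat2: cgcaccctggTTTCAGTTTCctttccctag
Rsad2: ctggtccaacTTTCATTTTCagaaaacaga

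The 20 cores of the 13 genes began between 222 bases before and 32 bases after the gene start. No core was found in the windows of Irf7, Irf9, Ifi44, Ifit2, Oasl1, Oasl2, Xaf1 and Dtx3l, which says only that these letters are not in those 300 bases. These 8 genes and the 13 with a core are compared by library further on.

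**Figure D1:**
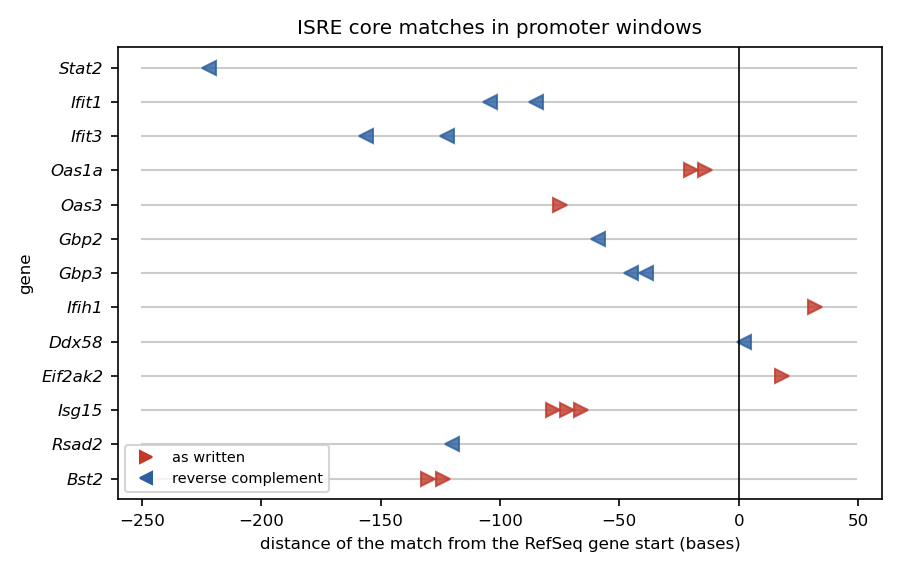
Position of each ISRE core match (triangles, pointing right as written and left as reverse complement) relative to the RefSeq gene start, in bases, for the 13 genes with a match. The matches run from 222 bases before to 32 bases after the start, and those of Ddx58, Eif2ak2 and Ifih1 begin after it.

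Library totals ran from 38870673 to 41803775 counts in KO and from 37023586 to 48172863 in WT. The targeted gene went against the labels: Sost had 2284, 1063 and 513 counts in the libraries labelled Sost-/-, against 354, 621 and 274 in those labelled Sost+/+ (edgeR adjusted p = 0.124). Every direction below is therefore for libraries as labelled. Summed smooth muscle markers, of which 8 of 10 were called higher in KO, were 4185 to 6350 CPM in KO and 1413 to 2782 CPM in WT, and summed cardiomyocyte markers 52790 to 65990 CPM in KO and 78100 to 85140 CPM in WT, where CPM is a count divided by the TMM-scaled size of its library, so that libraries of unequal depth can be set side by side. In bulk RNA, more cells of a type and more RNA per cell cannot be told apart. Xist had 7 to 25 counts and Ddx3y 3638 to 5254 in the 6 libraries, so no library stood apart in these sex-linked genes.

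No interferon-stimulated gene differed between KO and WT libraries at an adjusted p under 0.05 (edgeR's quasi-likelihood test, Benjamini-Hochberg over 15096 genes), where 2.55% of all tested genes did. At an unadjusted p under 0.05 there was 1 of 31, Bst2, against 20.2% of all tested genes. KO and WT libraries overlapped in all 31, whereas 14.3% of tested genes lay wholly higher in KO and 11.1% wholly lower. The median log2 fold change of the 31 was -0.05, beside 0.01 over all tested genes, with 10 above 0 and 21 below. Log2 fold changes ran from -0.67 in Oas3 to 0.41 in Ifi27l2a. Without WT 3 the split turned round, to 25 above 0 and 6 below with a median of 0.14, and without KO 3 it was 16 and 15 with a median of 0.01. With total counts as the only scaling 19 were above 0 and 12 below, at a median of 0.07 where that of all genes was 0.13.

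The 31 genes spread more between libraries of 1 group than the median tested gene did. The SD of log2 CPM within groups, pooled over KO and WT, had a median of 0.36 over the 31 genes and 0.16 over all tested genes, and 30 of the 31 exceeded the latter. All 31 exceeded the median of 0.14 among the 10526 tested genes whose mean level lay within the range of the 31. Other lists spread as well: the median pooled SD was 0.29 over the 65 other interferon-stimulated genes, 0.48 over dendritic, 0.49 over smooth muscle, 0.59 over T and NK and 0.87 over adipocyte markers, and 0.14 over fibroblast and 0.22 over macrophage markers. Over the 31 genes the median SD was 0.26 in KO and 0.37 in WT libraries, against 0.14 and 0.16 over all tested genes. The highest library held 1.004 to 2.32 times the lowest within KO (median 1.40) and 1.27 to 3.83 times within WT (median 1.59).

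**Figure D2:**
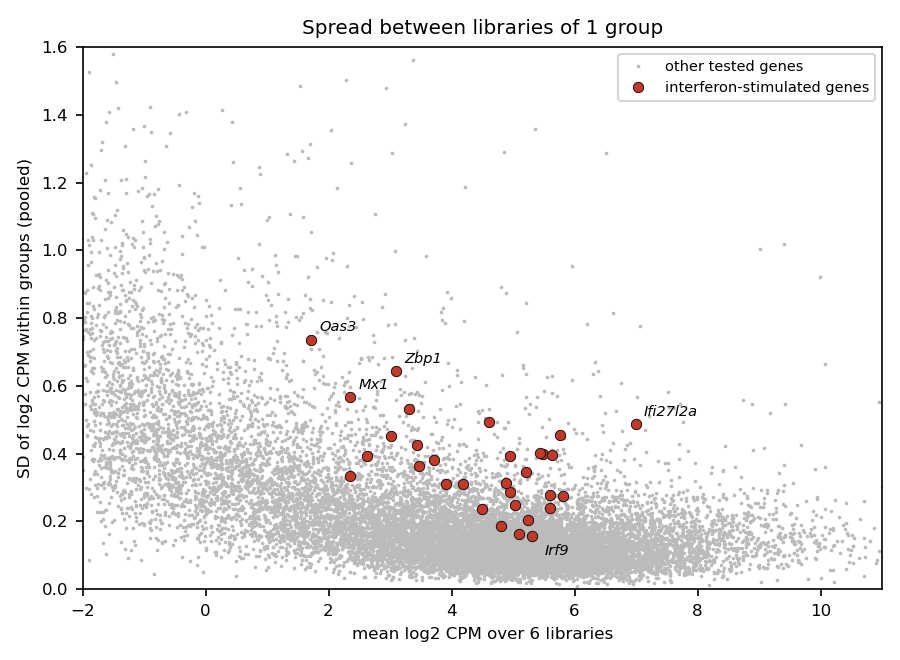
Pooled within-group SD of log2 CPM (vertical axis) against mean log2 CPM over the 6 libraries (horizontal axis) for the 31 interferon-stimulated genes (red) and all tested genes (grey). Grey points beyond the axes are not drawn. The red points run from Irf9, just below the all-gene median of 0.16, up to Oas3, and most lie along the upper side of the grey cloud at their level.

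The spread had a common order. Within WT, WT 3 was the highest library for 30 of the 31 genes, where it was highest for 36.1% of all tested genes. WT 2 was the lowest for 24, where it was lowest for 30.3% of all tested genes. Within KO, KO 3 was the highest for 0 genes and the lowest for 26, where it was lowest for 29.3% of all tested genes. KO 1 was highest for 14 and KO 2 for 17, beside 31.9% and 36.7% of all tested genes, and KO 3 for 31.4% of those. Over all 6 libraries WT 3 was highest for 22 genes, KO 1 for 7 and KO 2 for 2. The shares over all tested genes were 18.1%, 12.2% and 16.8%. In log2 units from its own group's mean, the median of the 31 was 0.09 in KO 1, 0.13 in KO 2 and -0.23 in KO 3, and -0.15 in WT 1, -0.27 in WT 2 and 0.40 in WT 3, while the medians over all tested genes were within 0.01 of 0. Across these 6 deviations, each gene's Pearson correlation with the mean of the other 30 had a median of 0.92 (n = 6 libraries, which all genes share). It was above 0.8 for 23 genes and lowest for Ifi27l2a, at -0.18, and Ifit2, at 0.55. The deviations sum to 0 within each group, so fewer than 6 are free. The correlation was not computed over all tested genes.

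**Figure D3:**
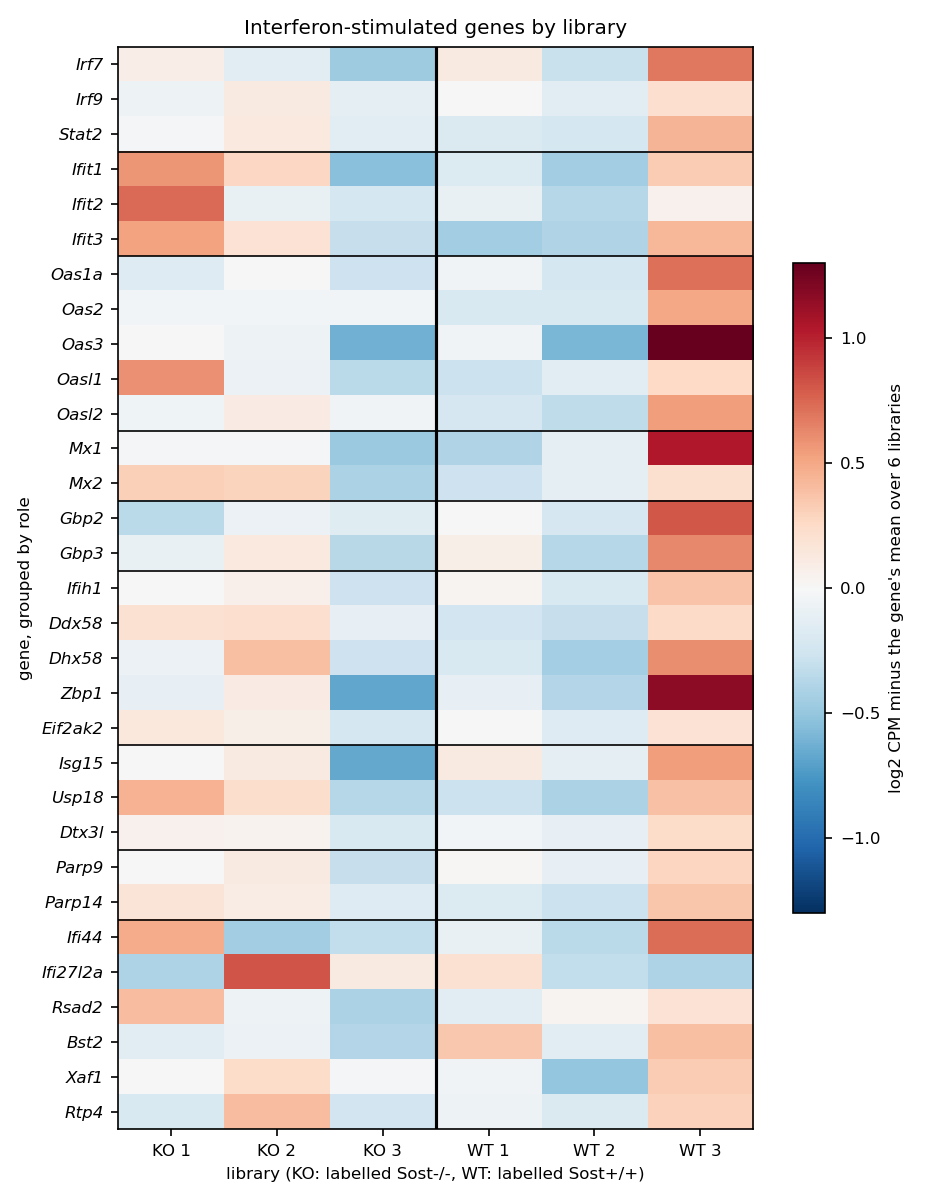
Heat map of the 31 genes (rows, grouped by role and separated by lines) in the 6 libraries (columns, KO left of the thick line, WT right); colour is log2 CPM minus the gene's mean over the 6 libraries. The WT 3 column is red for nearly every gene and darkest in Oas3, Mx1 and Zbp1, the KO 1 column is red in the IFIT rows, and Ifi27l2a stands apart with its highest value in KO 2.

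The transcription factors of the response were read deeply and showed this order in WT. Irf7, which amplifies interferon gene induction, had 47.8, 40.7 and 32.7 CPM in KO 1 to 3, against 48.9, 36.7 and 72.3 CPM in WT 1 to 3. Stat2 had 47.7, 52.7 and 43.8 CPM in KO, against 42.5, 41.3 and 65.3 CPM in WT. In both genes WT 3 was the highest of the 6. In Irf7 WT 1 lay level with KO 1 and WT 2 among the KO libraries, and in Stat2 both lay just below them. Irf9, the DNA-binding partner of the STATs, had 36.4 to 43.1 CPM in KO and 36.1 to 46.4 CPM in WT, the narrowest spread of the list (pooled SD at the 48.7th percentile of all tested genes). In GENCODE M21 Irf9 shares 123 exonic bases with Rnf31 on the same strand and Irf7 shares 45 with Phrf1 on the opposite strand, so some of their reads may not be separate. Their log2 fold changes were -0.38 (SE 0.23) for Irf7, -0.05 (SE 0.17) for Stat2 and -0.06 (SE 0.11) for Irf9, with edgeR adjusted p = 0.379, 0.902 and 0.818.

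The 3 IFIT genes of the list, whose proteins bind foreign RNA and hold back its translation, had their highest value in KO 1. They lie in 1 stretch of chromosome 19, from 34550694 (Ifit2) to 34650009 (Ifit1) in mm10. Ifit1 had 36.1, 29.3 and 16.7 CPM in KO, against 21.4, 17.8 and 30.6 CPM in WT. Ifit2 had 72.2, 40.4 and 36.8 CPM in KO, against 40.6, 33.4 and 45.0 CPM in WT. Ifit3 had 77.5, 61.8 and 44.1 CPM in KO, against 39.5, 41.1 and 73.1 CPM in WT. KO 1 was the highest of the 6 libraries for each, and KO 3 the lowest of its group. The log2 fold changes were 0.24 (SE 0.27), 0.33 (SE 0.23) and 0.26 (SE 0.26), with edgeR adjusted p = 0.664, 0.461 and 0.614. Without KO 1 they were -0.01, -0.04 and 0.05. Outside the list, KO 1 was also the highest of the 6 libraries for Ifit3b, but for Ifit1bl1 WT 1 was. Reads of Ifit3 may be shared with close paralogs, since how multiply mapped reads were counted is not given in the sources used here.

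KO 1 was also the highest of the 6 libraries for Oasl1, Mx2, Usp18 and Rsad2. Rsad2, the gene of viperin, had 39.1, 28.2 and 22.2 CPM in KO, against 26.7, 30.3 and 33.8 CPM in WT. Usp18, the protease that removes ISG15 and dampens the type I receptor, had 14.9, 12.7 and 8.35 CPM in KO, against 8.90, 8.14 and 14.1 CPM in WT. In both genes KO 1 lay above WT 3, whereas KO 3 lay below every WT library in Rsad2 and within the WT range in Usp18. Their log2 fold changes were -0.02 (SE 0.19) and 0.21 (SE 0.25), with edgeR adjusted p = 0.964 and 0.682. Immediate early and heat shock genes, set beside these as a sign of handling, had KO 1 as the highest KO library for 9 of 9 genes (466, 311 and 361 CPM summed in KO, against 401, 369 and 436 CPM in WT), with none at 0 and 1 of the 9 called, Atf3, lower in KO (log2 fold change -0.91, edgeR adjusted p = 0.0151). Their part in the IFIT pattern was not tested.

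The classical enzymes of the OAS family make short oligoadenylates that switch on RNase L, and all of the 5 family genes but Oasl1 had their highest value in WT 3. In mm10 they lie on chromosome 5, Oas1a, Oas2 and Oas3 within 120730333 to 120907521 and Oasl1 and Oasl2 within 114896936 to 114937915. Oas3 spread most, with 138, 125 and 88 counts in KO, against 140, 84 and 298 counts in WT. WT 3 held the most counts and WT 2 the fewest, and per library size KO 3 and WT 2 were level. Oas2 had 30.3, 30.1 and 30.2 CPM in KO, against 27.0, 27.0 and 43.9 CPM in WT. Here 5 libraries lay close together and WT 3 stood above them. Oas1a had 9.91, 11.1 and 9.21 CPM in KO, against 10.7, 9.49 and 18.2 CPM in WT. Oasl2 had 35.5, 39.8 and 35.9 CPM in KO, against 31.8, 29.4 and 54.1 CPM in WT. In both WT 3 stood above the other 5 libraries. Oasl1, whose protein restrains Irf7 translation in mice, had 9.25, 5.82 and 4.82 CPM in KO, against 5.05, 5.57 and 7.36 CPM in WT. For Oas3 the log2 fold change was -0.67 (SE 0.44, edgeR adjusted p = 0.424) and 0.08 without WT 3, and for Oas2 -0.11 (SE 0.17) and 0.15 without WT 3.

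The Mx and guanylate-binding GTPases were highest of the 6 libraries in WT 3 as well, apart from Mx2. Mx2 was highest in KO 1 over all 6 libraries and in WT 3 within WT. The Mx genes neighbour each other on chromosome 16, and in C57BL/6 mice neither encodes a full-length antiviral protein, Mx2 being annotated as a polymorphic pseudogene in GENCODE M21. Mx1 had 4.98, 4.98 and 3.63 CPM in KO, against 3.86, 4.63 and 10.4 CPM in WT. Mx2 had 6.26, 6.22 and 3.82 CPM in KO, against 4.22, 4.63 and 5.85 CPM in WT. Gbp2, which acts against pathogens inside vacuoles and answers strongly to type II interferon, had 38.7, 47.0 and 44.2 CPM in KO, against 49.5, 42.4 and 86.8 CPM in WT. WT 3 held more than any KO library in Mx1 and Gbp2. The other WT libraries lay within the KO range, except WT 1 in Gbp2, just above it. Gbp3 had 28.8, 33.8 and 24.1 CPM in KO, against 32.5, 23.8 and 47.4 CPM in WT. The log2 fold changes were -0.46 (SE 0.23) for Gbp2 and -0.47 (SE 0.34) for Mx1, with edgeR adjusted p = 0.300 and 0.474, and -0.09 and 0.09 without WT 3.

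The sensors of foreign nucleic acid differed among themselves in how far they spread. Zbp1, which detects left-handed nucleic acid and can start necroptosis, had 7.90, 9.15 and 5.35 CPM in KO, against 7.92, 6.54 and 19.0 CPM in WT. Its pooled SD lay at the 95.8th percentile of all tested genes, and WT 3 held 2.91 times the level of WT 2. Ddx58, the gene of RIG-I, had 37.5, 38.1 and 30.5 CPM in KO, against 27.7, 26.6 and 38.9 CPM in WT, and followed the mean of the other genes most closely (r = 0.99 over 6 libraries). Ifih1, the gene of MDA5, had 18.7 to 23.5 CPM in KO and 19.5 to 29.0 CPM in WT, with KO 3 the lowest and WT 3 the highest library. Dhx58, the gene of LGP2, had 6.64 to 10.5 CPM in KO and 5.90 to 12.1 CPM in WT. Eif2ak2, the gene of the kinase PKR, had 30.7, 29.3 and 23.8 CPM in KO, against 27.7, 24.7 and 31.7 CPM in WT, a log2 fold change of -0.01 with a 95% interval of -0.29 to 0.28. Ddx58 was at 0.19 (SE 0.15, edgeR adjusted p = 0.530) and Zbp1 at -0.57 (SE 0.37, adjusted p = 0.420), with 0.37 and 0.04 without WT 3.

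In the ubiquitin-like and ADP-ribosylation branch, Isg15, the conjugated modifier itself, had 13.1, 14.1 and 8.23 CPM in KO, against 14.1, 11.9 and 19.0 CPM in WT. KO 3 was the lowest and WT 3 the highest of the 6 libraries. Parp14, a mono-ADP-ribosyltransferase, had 63.0, 60.05 and 49.8 CPM in KO, against 49.7, 46.3 and 72.1 CPM in WT. Parp9 and Dtx3l, partners in a ubiquitin ligase complex, are read from opposite strands on chromosome 16 and share 458 exonic bases in GENCODE M21. The strand setting of the counting is not given in the sources used here, so their reads may not be fully separate. Parp9 had 37.8, 41.0 and 30.9 CPM in KO, against 38.4, 35.1 and 45.8 CPM in WT, and Dtx3l had 35.5, 35.3 and 29.8 CPM in KO, against 33.4, 31.7 and 40.2 CPM in WT. Both showed KO 3 as the lowest library and WT 3 as the highest. The log2 fold changes were -0.34 (SE 0.22) for Isg15, 0.04 (SE 0.17) for Parp14, -0.12 (SE 0.13) for Parp9 and -0.07 (SE 0.12) for Dtx3l.

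Among the other effectors, Bst2, whose product tetherin holds budding virions at the cell surface, had the smallest p of the list. The gene lies at chr8:71534255-71537456 on the minus strand in mm10. It had 44.1, 46.1 and 37.3 CPM in KO, against 62.2, 44.0 and 63.6 CPM in WT, so 1 WT library, WT 2, lay among the KO libraries. The means were 42.5 ± 4.61 CPM in KO and 56.6 ± 10.9 CPM in WT (SD, n = 3 each). The log2 fold change was -0.41 (SE 0.15, edgeR adjusted p = 0.165), with a 95% interval of -0.74 to -0.08 before adjustment. Over the other settings tried its adjusted p ran from 0.0547, without WT 2, to 0.483, without KO 3.

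Ifi27l2a, which encodes a small hydrophobic protein, was the most abundant of the 31 per length, at 329 CPM per kb of exon in KO and 248 CPM per kb in WT. Bst2 came next, at 47.1 CPM per kb in KO and 62.7 CPM per kb in WT, and Oas3 was last, at 0.40 CPM per kb in KO and 0.63 CPM per kb in WT. Ifi27l2a had 96.5, 224 and 138 CPM in KO, against 146, 102 and 96.1 CPM in WT. It was the only member with WT 3 as the lowest WT library and, with Rtp4, 1 of 2 with KO 2 as the highest of all 6. Adipocyte markers (7 of 7 tested, none at 0) summed to 533, 1132 and 850 CPM in KO, against 754, 672 and 404 CPM in WT. This was the order of Ifi27l2a within each group. KO 2 was the highest KO library for 6 of these 7 markers and WT 1 the highest WT library for 5. The most abundant, Fabp4, held 432, 756 and 568 CPM in KO, against 648, 572 and 369 CPM in WT. Fibroblast and macrophage markers, summed, shared this order within KO but not within WT. Dcn, the most abundant fibroblast marker, shared it in both groups. The part of these cells in the level of Ifi27l2a was not tested. Its log2 fold change was 0.41 (SE 0.28, edgeR adjusted p = 0.434), with 0.03 without KO 2 and 0.66 without KO 1, and reads may be shared with its paralog Ifi27l2b, which had 8 to 44 counts.

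Ifi44, Xaf1 and Rtp4 completed the list. Ifi44 had 13.8, 7.25 and 7.92 CPM in KO, against 9.28, 7.76 and 16.4 CPM in WT, with 1 high library in each group. Xaf1, a partner of the apoptosis inhibitor XIAP, had 14.8 to 17.8 CPM in KO and 10.6 to 18.9 CPM in WT. Rtp4, a chaperone for cell surface receptors, had 15.9, 24.1 and 15.3 CPM in KO, against 17.4, 15.9 and 22.3 CPM in WT. The 95% interval of the log2 fold change was -0.44 to 0.42 for Rtp4 and -0.91 to 0.50 for Ifi44.

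**Figure D4:**
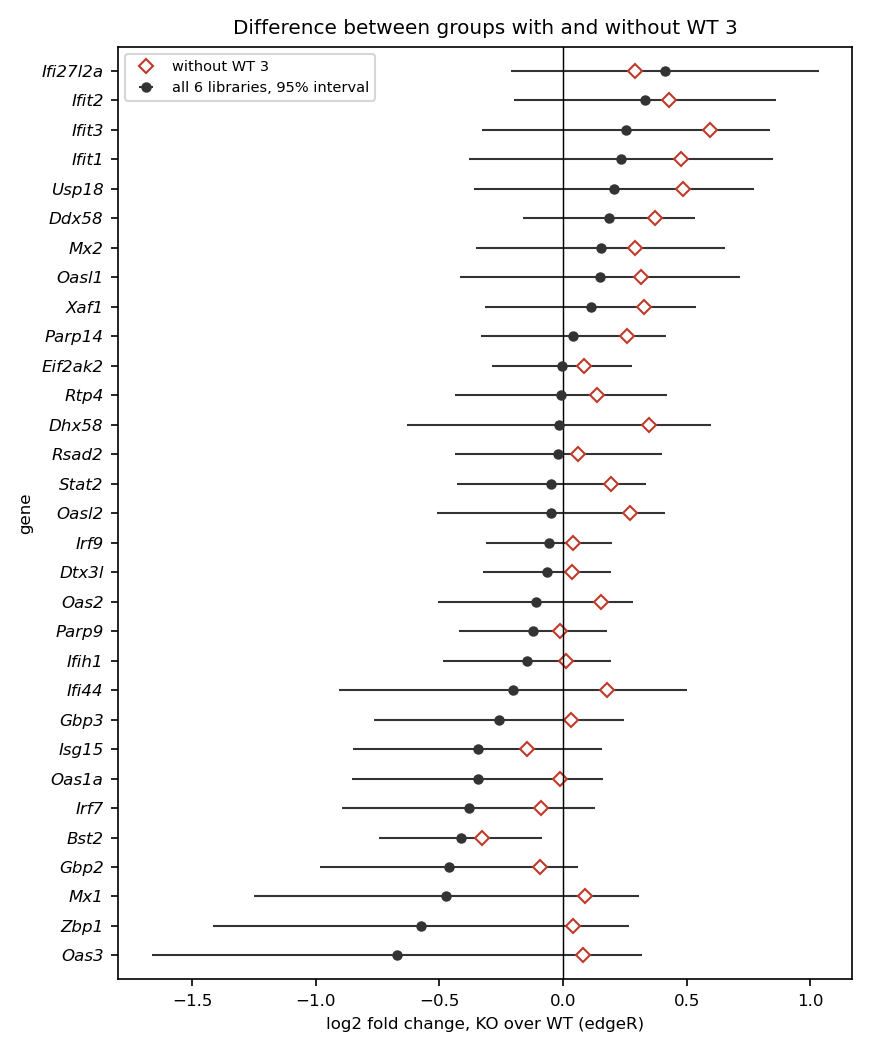
Log2 fold change of KO over WT (horizontal axis) for each of the 31 genes, with all 6 libraries (black, bars are 95% intervals from edgeR) and without WT 3 (open diamonds). The intervals cross 0 for all genes but Bst2, and 25 diamonds lie above 0 where 10 black points do.

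Genes with and without an ISRE core in the promoter window both had their highest median in WT 3 within WT and their lowest in KO 3 within KO. The median deviation from the group mean was 0.43 in WT 3 for the 13 genes with a core and 0.36 for the 8 without, and -0.22 and -0.19 in KO 3. WT 3 was the highest WT library for 13 of 13 and 8 of 8. The median log2 fold change was -0.15 with a core and -0.05 without.

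Upstream of these genes, interferon transcripts were scarce. Of 11 ligand genes 8 had 0 counts in all 6 libraries, among them Ifna1, Ifna2, Ifna4 and Ifna5, which allows up to 3 counts or 0.067 to 0.082 CPM per library. Ifnb1 had 0, 1 and 0 counts in KO, against 1, 1 and 0 in WT, and Ifnab 1, 0 and 1 in KO, against 0, 0 and 1 in WT. Ifng, the type II ligand gene, had 1, 4 and 3 counts in KO, against 16, 3 and 28 in WT. WT 3 held the most, the count of WT 2 lay within the KO range, and the gene was too low to be tested. Of the 6 receptor subunit genes 0 were called, and their median within-group SD was 0.09 in log2 CPM. Ifnlr1, of the type III receptor, varied more, with 6.22, 5.35 and 4.01 CPM in KO, against 4.57, 3.92 and 6.40 CPM in WT. Ifngr1, of the type II receptor, had 98.8, 109 and 114 CPM in KO, against 122, 116 and 117 CPM in WT, with no overlap between groups (log2 fold change -0.14, SE 0.09, edgeR adjusted p = 0.391). Ifnar1 had 2093, 2288 and 2257 counts in KO, against 2305, 2018 and 2093 in WT, a log2 fold change of -0.01 with SE 0.09.

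Of the 11 kinase, STAT and IRF genes outside the list, 0 passed in either direction, and WT 3 was the highest WT library for 10. Irf1 averaged 44.3 ± 7.86 CPM in KO and 50.6 ± 6.18 CPM in WT, and Irf8 24.0 ± 3.20 CPM in KO and 31.6 ± 9.99 CPM in WT (SD, n = 3 each). Of 20 nucleic acid sensing genes 0 passed. Ikbke, a kinase that activates IRF3, was nearest, with 380, 403 and 515 counts in KO, against 312, 266 and 244 in WT (log2 fold change 0.60, SE 0.15, edgeR adjusted p = 0.0688). Its groups did not overlap. Of 17 genes that restrain the pathway or remove nucleic acids 0 passed, and Socs3, a feedback inhibitor, had 568, 720 and 752 counts in KO, against 863, 842 and 1086 in WT (log2 fold change -0.53, SE 0.18, edgeR adjusted p = 0.149).

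Another 65 interferon-stimulated genes outside the list showed the same order within WT, with WT 3 highest for 57. None passed in edgeR, with 9 at an unadjusted p under 0.05, 15 log2 fold changes above 0 and 50 below, and a median of -0.11. For comparison, the background over the 15096 genes was 20.2% at that unadjusted p. There, 51.3% of log2 fold changes lay above 0, with a median of 0.01. The median deviation of the 65 genes from the group mean was 0.35 in WT 3 and -0.28 in WT 2. In the KO libraries it lay between -0.08 and 0.10, and KO 3 was highest for 7.

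Markers of immune cells moved with WT 3 in the same libraries. T and NK cell markers (7 of 9 tested, none at 0) summed to 13.2, 24.1 and 23.1 CPM in KO, against 32.2, 18.4 and 55.8 CPM in WT, and WT 3 was the highest WT library for 7 of 7. Cd8a, a marker of cytotoxic T cells, had 63, 186 and 130 counts in KO, against 269, 113 and 515 in WT. Dendritic cell markers (7 of 8 tested) summed to 22.5, 32.9 and 27.6 CPM in KO, against 29.3, 27.0 and 54.0 CPM in WT. WT 3 was the highest WT library for 5 of these 7. Itgax, the most abundant of them, had 10.6, 8.52 and 28.1 CPM in WT 1 to 3, so it made up much of the WT 3 sum. Cd209a was lowest in WT 3, with 2.33, 2.16 and 1.67 CPM in WT 1 to 3. Siglech and Ccr9 are the list's markers of plasmacytoid cells, which make type I interferon. Siglech was lowest in WT 3, with 74, 101 and 69 counts in KO, against 58, 56 and 29 in WT. Ccr9 had 2, 11 and 6 counts in KO, against 0, 6 and 14 in WT, too few to be tested. Macrophage markers (10 of 10 tested, none at 0) summed to 1157, 1841 and 1531 CPM in KO, against 1381, 1256 and 1471 CPM in WT, a narrower range within WT. WT 3 was the highest WT library for 7 of these 10. It was also highest in WT for 5 of 6 tested monocyte and neutrophil markers and 5 of 6 tested B and plasma cell markers. Over all tested genes this share was 36.1%. In KO the orders parted: the T and NK markers were lowest in KO 1, while the interferon-stimulated genes were lowest in KO 3. Of 6 thymocyte markers Rag1, Rag2, Dntt and Ptcra had 0 to 2 counts in every library. Themis had 5, 15 and 12 counts in KO, against 8, 12 and 63 in WT, and Cd1d1 had 273, 486 and 457 counts in KO, against 269, 230 and 107 in WT. The part of these cells in the levels of the interferon-stimulated genes was not tested.

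**Figure D5:**
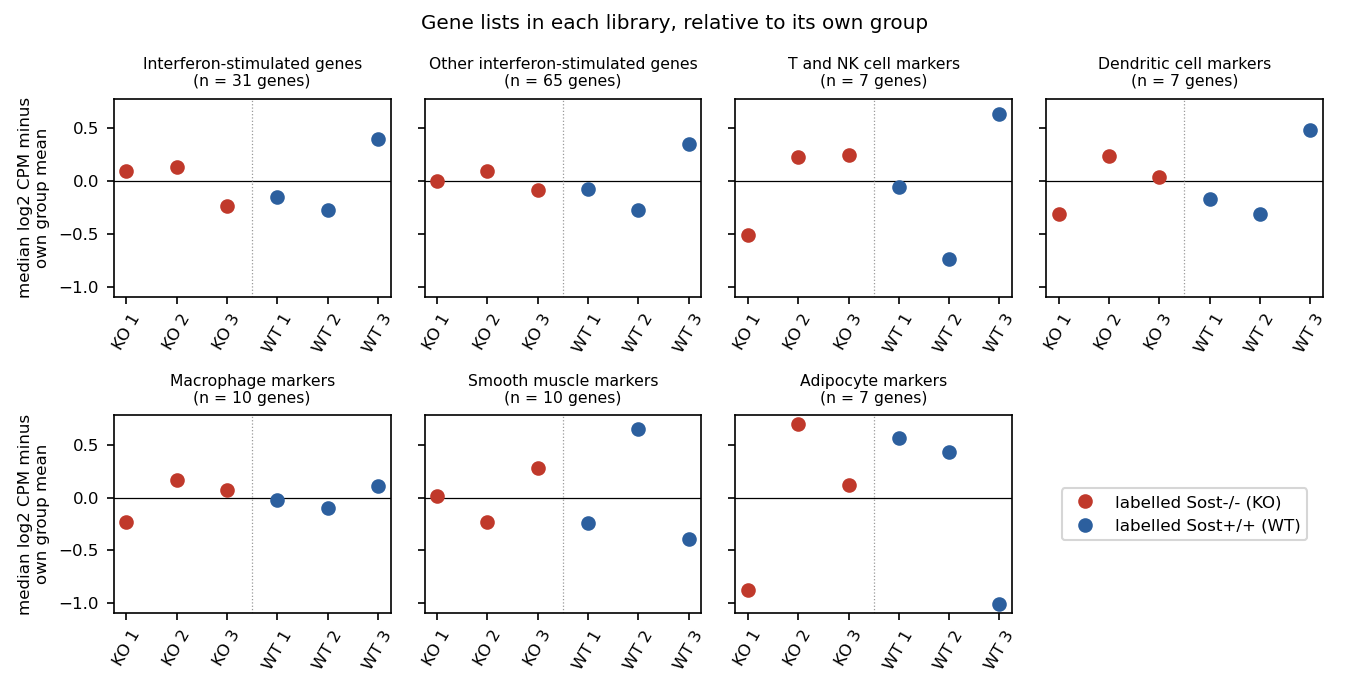
Median deviation of log2 CPM from the library's own group mean (vertical axes) for 7 gene lists, by library (KO red, WT blue). The interferon-stimulated genes and the 65 others are highest in WT 3 and lowest of their group in KO 3 and WT 2, the T and NK and dendritic markers are also highest in WT 3 but lowest in KO 1 within KO, and smooth muscle markers are highest in WT 2 within WT.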

How the data were processed

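Per the labels' protocols, aortic roots were frozen in liquid nitrogen, RNA was taken up in Trizol and libraries were made with a kit that keeps strand. Whole-number counts of reads per gene symbol were deposited by the authors, a column for each sample. A normalized signal, also deposited by the authors, equals those counts over a factor for each library (0.891 to 1.09). DRAGEN, HTSeq, DESeq2 and mm10 are named in the submitters' processing notes, and for tool versions, annotation and strand setting the sources used here give nothing. Samples were grouped by genotype label and numbered within a group in accession order. The labels do not say that roots came from separate animals, so the p-values cover only differences among these samples, which may be technical.

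Genes passing filterByExpr (minimum count 10, total 15) were scaled with TMM and compared by edgeR 4.0.16 in R 4.3.3 (quasi-likelihood, Benjamini-Hochberg, threshold 0.05). The SE is the absolute log2 fold change divided by the root of F, and log2 CPM used a prior count of 2. Alternatives were DESeq2 1.42.0, limma 3.58.1 (voom, or pseudocount 1 on the normalized signal), other scalings and filters, and each library left out. Simulated data were used to test the edgeR fit. The genes and lists were chosen with earlier results of these data known. The rule for naming took all 31 genes, Sost, the ligand, receptor and kinase, STAT and IRF genes, of other pathway lists the 4 of smallest p, and of marker lists the most abundant gene and those at 0. Other genes named (Xist, Atf3, Ifi27l2b, Cd8a, Siglech, Ccr9, Cd209a, Ifit3b, Ifit1bl1, Isg20, Cxcl9, Gbp10 and the thymocyte genes) were chosen after their values were seen. Positions and exon lengths come from GENCODE M21, and 65 of 67 further interferon-stimulated genes were matched by symbol. Some genes of these lists are not reported here.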

Additional observations from a re-analysis of the deposited data

How the results depend on the processing

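No interferon-stimulated gene passed in any setting tried, with edgeR under 4 scalings, 3 filters and a robust fit, with DESeq2, with limma on voom weights or on the normalized signal, or without any 1 library; unadjusted p was under 0.05 for 0 to 7 of the 31 genes, 7 of them without WT 2. Over all genes, edgeR called 385, against 755 (728 higher, 27 lower) with total counts only, 1159 (753 higher, 406 lower) by DESeq2, and 0 to 353 with 1 library left out: 0 without WT 1 (2235 at an unadjusted p under 0.05), 9 without KO 3, 118 without WT 3 and 218 without KO 2. Directions of single genes, none of them called, were unstable. With total counts only the log2 fold change changed sign in Irf9 (0.0657), Stat2 (0.0697), Oas2 (0.0064), Oasl2 (0.0672), Dhx58 (0.0996), Eif2ak2 (0.11), Dtx3l (0.0546), Rsad2 (0.0954) and Rtp4 (0.11), with upper-quartile scaling in Dhx58 (0.00356), Eif2ak2 (0.0142) and Rtp4 (0.0119), with voom in Oasl2 (0.00858) and Dhx58 (0.0387), and with limma on the normalized signal in Dhx58 (0.0145). Leaving out 1 library spanned 0 for Irf9 (-0.14 to 0.0405), Stat2 (-0.17 to 0.19), Ifit1 (-0.0147 to 0.49), Ifit2 (-0.0377 to 0.51), Oas2 (-0.24 to 0.15), Oas3 (-1.01 to 0.0801), Oasl1 (-0.17 to 0.33), Oasl2 (-0.21 to 0.27), Mx1 (-0.74 to 0.0884), Gbp3 (-0.47 to 0.0319), Ifih1 (-0.27 to 0.0134), Dhx58 (-0.23 to 0.35), Zbp1 (-0.85 to 0.0401), Eif2ak2 (-0.0918 to 0.0963), Dtx3l (-0.14 to 0.0368), Parp14 (-0.0817 to 0.26), Ifi44 (-0.55 to 0.18), Rsad2 (-0.26 to 0.15), Xaf1 (-0.0787 to 0.33) and Rtp4 (-0.25 to 0.14). Leaving out WT 3 turned the sign of 15 of them. The median pooled SD of the list was 0.36 under TMM and under DESeq2's factors and 0.38 with total counts only. No paired analysis was possible because the labels give no replicate numbers shared between the groups. The lowest count of any of the 31 genes in any library was 84.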

Other observations

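Of the 65 interferon-stimulated genes outside the list, some lay far apart between WT libraries and others close together. Isg20, an exonuclease gene, had 8.39, 8.07 and 8.38 CPM in KO, against 7.94, 8.39 and 8.15 CPM in WT. Cxcl9, a chemokine that draws T cells, had 258, 279 and 253 counts in KO, against 436, 222 and 934 counts in WT. Cxcl10, which shares its receptor, had 115, 137 and 93 counts in KO, against 200, 109 and 418 counts in WT. Gbp10, a guanylate-binding protein gene, had 207, 244 and 168 counts in KO, against 327, 186 and 694 in WT. In all 3 genes WT 1 and WT 3 lay above every KO library and WT 2 did not. Their log2 fold changes were -1.11 (SE 0.45), -1.17 (SE 0.45) and -1.06 (SE 0.44), with edgeR adjusted p = 0.210, 0.196 and 0.218. Ifng, Cd8a and these 3 genes shared the order WT 3, WT 1, WT 2 within WT. Cd8a, Cxcl9 and Gbp10 were chosen after their values were seen. The order was not particular to them: of the 31 genes, WT 3 was highest for 30 and WT 2 lowest for 24 within WT.

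Ly6a, Psmb10 and Ifi35 had the smallest p among the 65 further genes. Ly6a, the gene of the surface protein Sca-1, averaged 208 ± 14.6 CPM in KO and 259.8 ± 24.8 CPM in WT (SD, n = 3 each), with no overlap between groups (log2 fold change -0.32, SE 0.10, edgeR adjusted p = 0.141). Psmb10, an immunoproteasome subunit gene, averaged 55.1 ± 8.15 CPM in KO and 70.1 ± 8.73 CPM in WT (SD, n = 3 each; log2 fold change -0.35, SE 0.13, adjusted p = 0.178).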
